A study of Drosophila melanogaster with 12 samples.

Results

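Antimicrobial peptide (AMP) genes encode small secreted peptides with which insects kill bacteria and fungi. The levels of 10 such transcripts are described here in S2R+ cells, a line of cultured Drosophila melanogaster cells of embryonic origin. The genes were chosen by gene class and by the well-above-background flag of their probes, with earlier results of these arrays known, and were found by the CG identifier of their probes. They are Anp (CG1361-RA), CecA1 (CG1365-RA), CecA2 (CG1367-RA), CecB (CG1878-RA), CecC (CG1373-RA), AttA (CG10146-RA), AttD (CG7629-RA), DptA (CG12763-RA), Mtk (CG8175-RA) and Drs (CG10810-RA). They are 10 of 25142 features on the array, and all 10 were among the 15114 features tested. A further 11 AMP genes with a probe were set beside them.

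Cultures in Schneider's medium with fetal bovine serum, penicillin and streptomycin were moved 24 h after plating to 11, 14, 25 or 30 °C and harvested 24 h later, with 3 biological replicates per temperature according to the labels and no other treatment. Total RNA was labelled with Cy3, and each sample was hybridised to an Agilent oligonucleotide array of its own, which gave 12 arrays. Per the labels, more cells were plated for the cooler cultures, with the aim of similar final densities, namely 4500000 for 11 °C, 3500000 for 14 °C, 1700000 for 25 °C and 1500000 for 30 °C. Plated cell number and temperature therefore cannot be told apart. The question was which transcripts respond when cells leave the optimum of 25 °C, and in particular which are higher at low temperature (11 and 14 °C) than at high temperature (25 and 30 °C).

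AMP genes of Drosophila are classical targets of innate immune signaling. In the IMD pathway, peptidoglycan of Gram-negative type is bound by receptors such as PGRP-LC, and the signal ends in cleavage and nuclear entry of the NF-kB factor Relish (Rel). In the Toll pathway, a protease cascade cleaves the ligand Spätzle (spz), which activates the receptor Toll (Tl) and releases the NF-kB factors Dif and Dorsal (dl) from Cactus (cact). Diptericin is the customary readout of the IMD pathway and Drosomycin that of the Toll pathway, and cells of the S2 type, which resemble hemocytes, are often used to study both. In bulk RNA from a culture, a larger share of cells with a transcript and more transcript per cell cannot be told apart.

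Between 53.9% and 61.1% of the 43603 gene spots of an array were well above background, by the flag that the scanner software gives to a spot whose signal clearly exceeds its background. The median processed signal of an array was between 35.75 and 60.09 intensity units before scaling, and 0 gene spots were saturated. All signals below are processed signals scaled to a common median of the arrays and are given in these units. Each temperature had only 3 arrays, which limits the precision of all values. Slide 1 held replicate 1 of all 4 temperatures, slide 2 held replicates 2 and 3 of 11 and 14 °C, and slide 3 held replicates 2 and 3 of 25 and 30 °C. Of 12 hemocyte markers, 7 were well above background on all 12 arrays, among them the collagen genes vkg and Col4a1, and only lz, a factor of crystal cells, was so on no array. Of 5 neuron markers 4, and of 3 germ line markers 2, were also well above background on all 12 arrays, so detection of these markers did not single out hemocytes.

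The 10 genes were measured by 15 probes and 21 spots on each array. Of the 252 spots on all arrays, 211 were well above background and 0 carried an outlier flag. The dimmest spot with the flag belonged to CecA2 (10.29 units, 30C replicate 1), and the brightest spot without it belonged to DptA (20.13 units, 11C replicate 2), both before scaling. CecA1, CecA2, CecC, AttA, AttD and Drs had at least 1 probe well above background on every array. Anp and CecB had this flag on 3 arrays at 11, 14 and 25 °C each and on 1 of 3 at 30 °C. DptA had it on 2, 3, 0 and 3 arrays at 11, 14, 25 and 30 °C, and Mtk on 2, 2, 1 and 0 arrays. All 10 genes and all 15 probes passed the filter on dim probes. DptA met it at 11, 14 and 30 °C, Mtk at 11 and 14 °C, and Anp and CecB at all temperatures except 30 °C, so these 4 genes passed through the temperatures at which they were brighter.

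Anp, CecA1 and CecA2 were highest at 11 °C and lower at each warmer temperature, CecB was lowest at 30 °C, and CecC was lower at 30 °C than at the other temperatures. Cecropins are amphipathic helical peptides that disrupt bacterial membranes, and Anp (Andropin) encodes a related peptide known from the ejaculatory duct of male flies. The 5 genes are direct neighbours on chromosome arm 3R in the RefSeq annotation, in the order Anp, CecA1, CecA2, CecB and CecC, with 0 other coding genes between them. Sequences of the cecropin genes are similar, and whether a probe of one gene also bound transcripts of another was not tested.

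Anp had signals of 678, 951 and 903 units at 11 °C, 581, 530.3 and 626 units at 14 °C, 123, 93.3 and 89.0 units at 25 °C and 14.6, 8.44 and 8.48 units at 30 °C. The 4 temperatures formed a descending order without overlap between neighbours, and the lowest array at 14 °C was still above the highest at 25 °C. Mean log2 signals were 9.71 ± 0.26, 9.17 ± 0.12, 6.65 ± 0.25 and 3.34 ± 0.46 in order of rising temperature (SD, n = 3 each). At low against high temperature Anp rose by 4.44 ± 0.16 on the log2 scale (SE), or 21.7-fold, with a limma adjusted p of 8.04e-09. It held rank 20 of 15114 features when these were ordered from the largest increase.

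CecA1 followed the same order. Its signals were 2243, 1394 and 1030 units at 11 °C, 707, 448.5 and 548 units at 14 °C, 165, 261 and 263 units at 25 °C and 66.0, 85.7 and 85.8 units at 30 °C. Neighbouring temperatures did not overlap for this gene either. The increase at low against high temperature was 2.77 ± 0.21 (SE), or 6.83-fold, with an adjusted p of 8.2e-07.

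CecA2 had 479, 316 and 221.5 units at 11 °C, 89.8, 74.4 and 87.85 units at 14 °C, 41.9, 40.2 and 57.75 units at 25 °C and 16.3, 20.1 and 23.4 units at 30 °C. The arrays of each temperature lay below all arrays of the next cooler temperature. CecA2 rose by 2.45 ± 0.18 (SE) at low against high temperature, and its 2 probes changed by 2.54 and 2.36.

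CecB was dimmer, with 70.1, 44.7 and 44.95 units at 11 °C, 52.5, 31.9 and 32.5 units at 14 °C, 30.7, 17.3 and 27.1 units at 25 °C and 4.075, 5.91 and 4.60 units at 30 °C. Ranges at 11 and 14 °C overlapped, those at 14 and 25 °C were separated by 31.9 against 30.7 units, and the arrays at 30 °C stood apart. These signals are means over 2 probes, which changed by 1.48 and 2.59 at low against high temperature. In the brighter probe, A_09_P041631, low and high arrays overlapped, with 53.4 units at 25C replicate 3 and 48.7 units at 11C replicate 2. The increase at low against high temperature was 2.04 ± 0.20 (SE, adjusted p = 5.95e-06). With signals under the dimmest flagged spot of an array set to that floor it was 1.44 (adjusted p = 2.2e-05), and with normexp background correction it was 0.51 (adjusted p = 0.000647), below the 2-fold threshold.

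CecC departed from this course. It had 651, 403 and 506 units at 11 °C, 523, 328 and 409 units at 14 °C, 434, 538 and 511 units at 25 °C and 82.4, 52.8 and 72.6 units at 30 °C. The ranges at 11, 14 and 25 °C overlapped, and only the arrays at 30 °C were separate. Its increase at low against high temperature, 1.33 ± 0.16 (SE, 2.51-fold, adjusted p = 3.72e-05), stood beside log2 changes of 0.051 ± 0.23 (adjusted p = 0.869) at 11 °C and -0.26 ± 0.23 (adjusted p = 0.422) at 14 °C against 25 °C. Both probes of CecC gave nearly equal changes, with 1.31 and 1.34 at low against high temperature and -2.85 and -2.86 at 30 against 25 °C. Within arrays, the log2 ratio of CecC over CecA1 signal was between -1.79 and -1.03 at 11 °C, between -0.45 and -0.42 at 14 °C, between 0.96 and 1.39 at 25 °C and between -0.70 and 0.32 at 30 °C. The ratio itself depends on both probes, but its differences between arrays show that the 2 transcripts changed unequally from 11 to 25 °C.

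**Figure D1:**
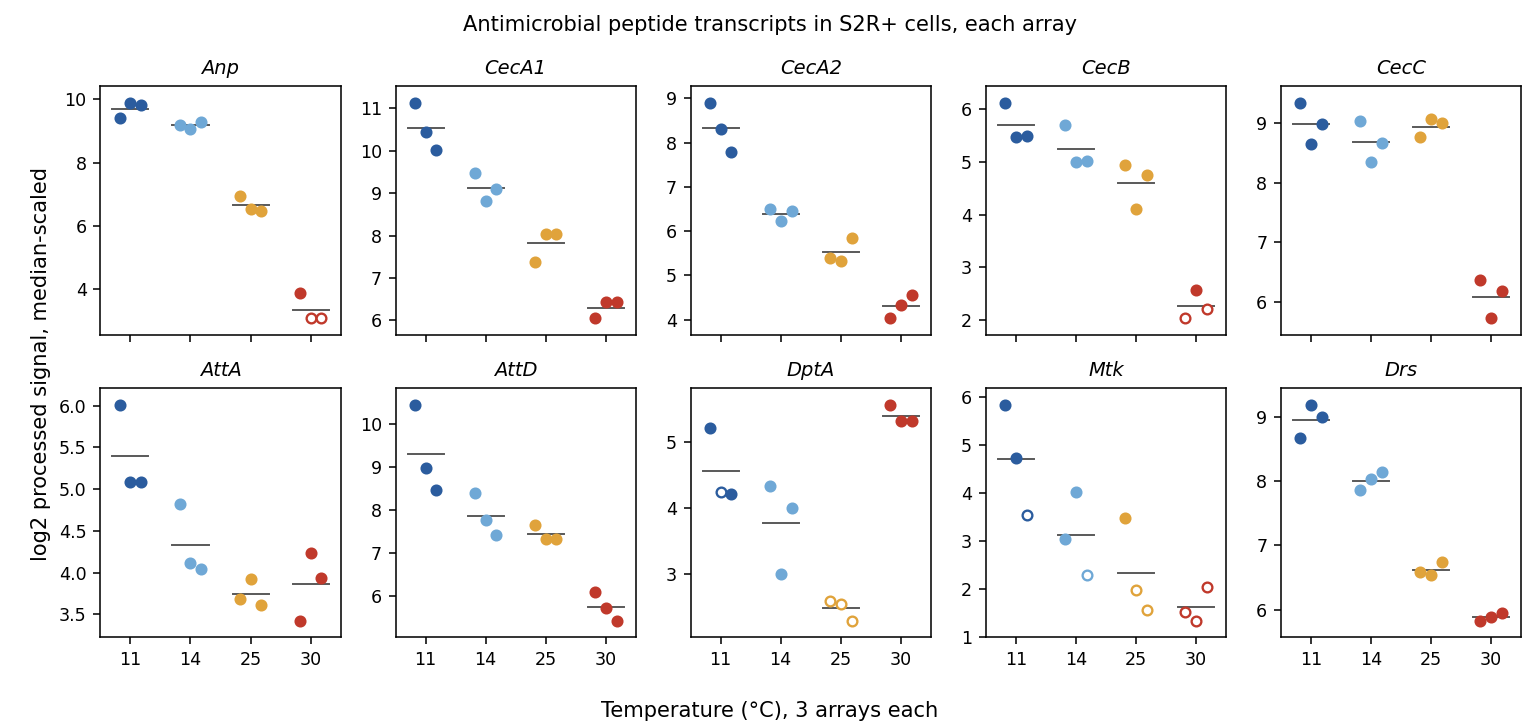
Log2 processed signal after median scaling (y axis, own range in each panel) of the 10 antimicrobial peptide genes at 11, 14, 25 and 30 °C (x axis). Each circle is an array, with replicates 1 to 3 from left to right, bars are means, and open circles mark arrays on which no probe of the gene was well above background. Anp, CecA1 and CecA2 step down at each temperature, CecC is level at 11, 14 and 25 °C, and DptA is lowest at 25 °C and highest at 30 °C.

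Attacins and diptericins are glycine-rich peptides that act mainly against Gram-negative bacteria. AttA had 64.5, 33.9 and 34.1 units at 11 °C, 28.25, 17.4 and 16.5 units at 14 °C, 12.9, 15.2 and 12.3 units at 25 °C and 10.75, 18.9 and 15.3 units at 30 °C, as the mean over its 3 probes. The arrays at 11 °C were above all others, whereas arrays at 14 and 30 °C overlapped. Its increase at low against high temperature was 1.06 ± 0.21 (SE, 2.08-fold, adjusted p = 0.00125), close to the 2-fold threshold, and it fell below that threshold (log2 changes between 0.90 and 0.94) when 11C replicate 1, 14C replicate 1 or 30C replicate 1 was left out. The call was also lost with normexp (0.27, adjusted p = 0.024), with dim signals set to the floor (0.69, adjusted p = 0.00621) and with only its brightest probe (0.37, adjusted p = 0.0704). The probes of AttA disagreed in size. Probe A_09_P029506, well above background on all 12 arrays, changed by 0.37, probe A_09_P205050, well above background on 10 arrays, by 1.08, and probe A_09_P177575, well above background on 4 arrays, by 1.71. The last of these gave 79.4, 39.8 and 29.1 units at 11 °C and, well above background on 0 of 3 arrays, 7.12, 4.81 and 3.255 units at 25 °C. AttA lies beside its close copy AttB, and binding of transcripts from both genes to a probe was not tested.

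AttD, a divergent attacin, had 1401, 501 and 352 units at 11 °C, 335, 219 and 170.4 units at 14 °C, 201, 161 and 159 units at 25 °C and 68.6, 52.4 and 43.0 units at 30 °C. The SD at 11 °C was 1.03 on the log2 scale, and 11C replicate 1 was 3.33 times the geometric mean of the other arrays at this temperature. Arrays at 14 and 25 °C overlapped, and those at 30 °C were the lowest. AttD rose by 1.99 ± 0.31 (SE) at low against high temperature, or 3.96-fold, with an adjusted p of 0.000206.

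DptA (Diptericin A) was the exception among the 10 genes. Its signals were 36.9, 18.8 and 18.5 units at 11 °C, 20.0, 7.95 and 15.9 units at 14 °C, 5.985, 5.835 and 4.875 units at 25 °C and 47.15, 39.6 and 39.7 units at 30 °C. No array at 25 °C was well above background for it, and the 3 arrays at 30 °C were above all other arrays. On the log2 scale the signal averaged 5.39 ± 0.14 at 30 °C, against 2.47 ± 0.16 at 25 °C (SD, n = 3 each). Against the floor of the arrays at 25 °C, DptA was at least 3.17-fold higher at 30 °C (adjusted p = 0.000159 in the fit) and at least 1.77-fold higher at 11 °C (adjusted p = 0.000441, with a mean of 4.55 ± 0.57 at 11 °C). The bound takes the lowest signal of a spot well above background on each array of the dim side in place of a lower signal. The rise at 30 °C offset that at 11 and 14 °C, and the log2 change at low against high temperature was 0.23 ± 0.24 (SE, adjusted p = 0.429).

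Mtk (Metchnikowin) is a proline-rich peptide with activity against fungi and Gram-positive bacteria. It was well above background on the fewest arrays of the 10 genes (5 of 12), with 56.9, 26.4 and 11.7 units at 11 °C, 8.25, 16.2 and 4.91 units at 14 °C, 11.2, 3.92 and 2.935 units at 25 °C and 2.86, 2.54 and 4.09 units at 30 °C. The ranges of neighbouring temperatures overlapped, and the arrays at 11 °C were all above those at 25 °C only by 11.7 against 11.2 units. The log2 change of 1.93 ± 0.45 (SE, adjusted p = 0.00333) at low against high temperature became 0.26 with normexp correction and 0.62 with dim signals set to the floor, and neither value was past the thresholds (adjusted p of 0.0723 and 0.0924). For 30 against 25 °C no fold is given, since Mtk was below the floor on both sides.

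Drs (Drosomycin), a cysteine-rich antifungal peptide, had 407, 585 and 509 units at 11 °C, 232, 261 and 281 units at 14 °C, 95.6, 93.1 and 106 units at 25 °C and 56.8, 59.0 and 61.35 units at 30 °C. Neighbouring temperatures did not overlap, and the replicates were the most even of the 10 genes at 25 and 30 °C (SD of 0.10 and 0.06 on the log2 scale). The increase at low against high temperature was 2.23 ± 0.10 (SE, 4.69-fold, adjusted p = 2.79e-08).

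The 10 genes were then placed among all tested features. At low against high temperature, 9 of the 10 were called higher, at a change of at least 2-fold and an adjusted p under 0.01, against 9.23% of all features called higher (1395 of 15114). Mtk, among the 9, passed the filter only at 11 and 14 °C, where it was high, so its call carries no weight. None of the 10 was called lower, against 11.4% of all features, and 0 of them were lower at an unadjusted p under 0.05. The share of all features at that unadjusted p was not counted, so counts at it, here and below, have no share beside them. The 6 low arrays lay above all 6 high arrays for 5 of the 10 genes and for 10.4% of all features. These 5 were Anp, CecA1, CecA2, CecB and Drs. For CecB this held for the mean of its probes but not for its brighter probe. The median log2 change of the 10 genes was 2.01 and that of all features -0.173. Scaling on the 75th percentile or on spike-in controls put the median of all features at 0.0225 and 0.072 and that of the 10 genes at 2.21 and 2.26. With normexp these medians were -0.0494 and 1.26, and at 11 against 25 °C the median of the 10 genes was then 1.06. Relative to the median of all features, the main changes were 4.61 for Anp, 1.50 for CecC, 1.23 for AttA and 0.40 for DptA. These genes were chosen with earlier results of the same arrays known, so their counts and adjusted p values describe where they stand and are not independent evidence.

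**Figure D2:**
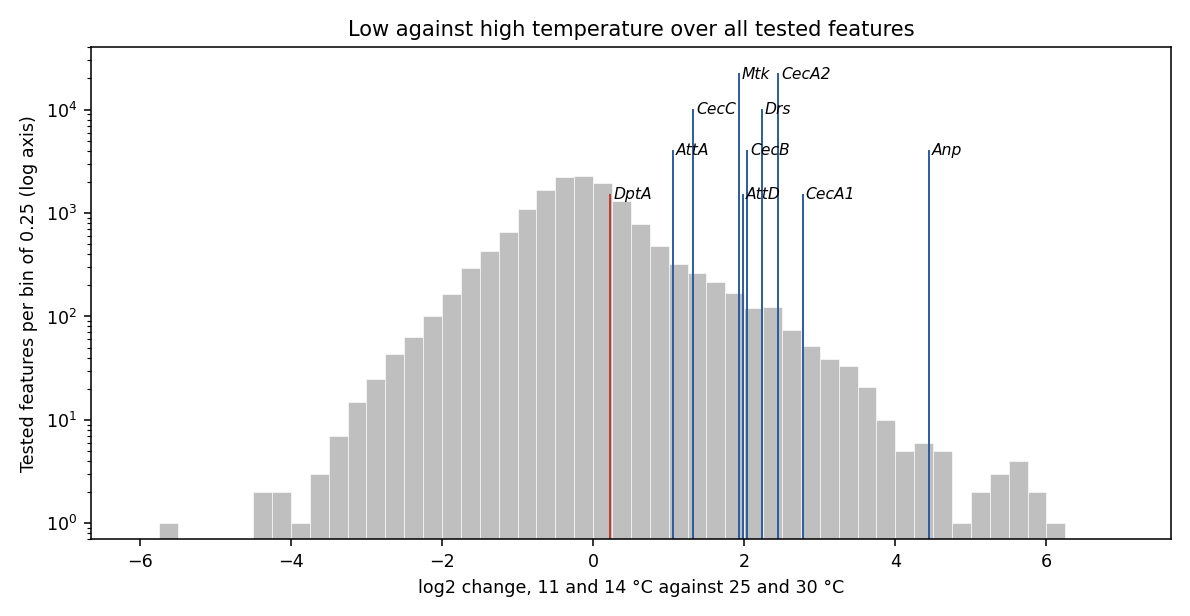
Number of tested features (y axis, log scale) by log2 change at 11 and 14 °C against 25 and 30 °C (x axis, bins of 0.25). Vertical lines mark the 10 antimicrobial peptide genes, blue where called and red for DptA, and reach different heights only to keep the names apart. All 10 lie to the right of the median of all features, -0.173, and Anp lies in the far right tail at 4.44.

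Each temperature was also compared with 25 °C, and these comparisons share the arrays at 25 °C. At 11 °C, 9 of the 10 genes were called higher, all but CecC, against 8.73% of all features, and 0 were called lower, against 11.2% (0 at an unadjusted p under 0.05). Mtk and DptA met the filter at 11 °C but not at 25 °C, so their calls carry no weight. Among genes well above background on all arrays at both temperatures, the largest increases were those of Anp (3.05 ± 0.23, SE), CecA2 (2.81 ± 0.26) and CecA1 (2.72 ± 0.29), followed by Drs (2.33 ± 0.14), AttD (1.86 ± 0.44), AttA (1.65 ± 0.30) and CecB (1.10 ± 0.28). The median over the 10 genes was 2.21, against -0.221 over all features. Calls of CecB (adjusted p = 0.00743) and Mtk (adjusted p = 0.00999) lay close to the threshold. The call of CecB was lost without any 1 of 7 arrays, with adjusted p values between 0.0101 and 0.0313, and that of Mtk without any 1 of 8 arrays, with values between 0.0134 and 0.0405. DptA, with no array above background at 25 °C, was not called with dim signals set to the floor (0.86, adjusted p = 0.0482) or with normexp (0.35, adjusted p = 0.0419), nor was Mtk (1.01, adjusted p = 0.0671, and 0.47, adjusted p = 0.0357). AttD was no longer called without 25C replicate 2 (adjusted p = 0.016) or without 25C replicate 3 (adjusted p = 0.0157). With only the brightest probe, AttA gave 0.40 (adjusted p = 0.18) and CecB 0.73 (adjusted p = 0.0959), and neither was called. With normexp, AttA gave 0.44 (adjusted p = 0.0159) and CecB 0.39 (adjusted p = 0.0362), again without a call.

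At 14 °C only Anp, CecA1 and Drs were called higher among the 10 genes, or 3 of 10 against 5.33% of all features, and 0 of 10 were called lower, against 4.96% (0 at an unadjusted p under 0.05, where 6 were higher). Anp changed by 2.52 ± 0.23, Drs by 1.39 ± 0.14 and CecA1 by 1.31 ± 0.29 (SE). The call of CecA1 was lost without 14C replicate 1, 14C replicate 3, 25C replicate 1 or 25C replicate 2 (adjusted p between 0.0111 and 0.0241). The log2 changes of the other genes well above background on all arrays at both temperatures were 0.86 for CecA2, 0.64 for CecB, 0.58 for AttA, 0.42 for AttD and -0.26 for CecC. Mtk, well above background on 1 of 3 arrays at 25 °C, gave 0.78, and -0.21 with dim signals set to the floor. DptA was at least 1.03-fold higher, with an adjusted p of 0.0124. For AttA, the brightest probe alone gave 0.07. The median of the 10 genes was 0.824, against -0.189 for all features.

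At 30 °C the direction was mostly the opposite. Called lower than at 25 °C were 5 of the 10 genes, against 3.39% of all features, and they were the 5 of the Anp and cecropin cluster. The fitted change was below 0 for 8 genes, of which 7 were lower at an unadjusted p under 0.05. Anp fell by 3.31 ± 0.23 on the log2 scale (SE, 9.92-fold), CecC by 2.85 ± 0.23 (7.23-fold), CecB by 2.34 ± 0.28, CecA1 by 1.52 ± 0.29 and CecA2 by 1.22 ± 0.26. Their adjusted p values were between 5.93e-06 for Anp and 0.00645 for CecA2. Anp and CecB were well above background on 1 of 3 arrays at 30 °C, and with dim signals set to the floor their changes were -3.13 and -1.29. They met the filter at 25 °C but not at 30 °C, so their calls carry no weight. The call of CecA2 was lost without any 1 of 9 arrays (adjusted p between 0.0103 and 0.0268), and that of CecA1 without 25C replicate 2 or 3 or any array at 30 °C (adjusted p between 0.0115 and 0.0167). Under scaling on the 75th percentile or on spike-in controls, both calls were lost as well. DptA alone was called higher, 1 of 10 against 4.17% of all features. It met the filter at 30 °C but not at 25 °C, so this call carries no weight. AttD changed by -1.69 ± 0.44 (adjusted p = 0.0178) and Drs by -0.73 ± 0.14 (adjusted p = 0.0039, under 2-fold). AttA, with 0.12 ± 0.30, had no clear direction. The median of the 10 genes was -1.37, against -0.0772 for all features.

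**Figure D3:**
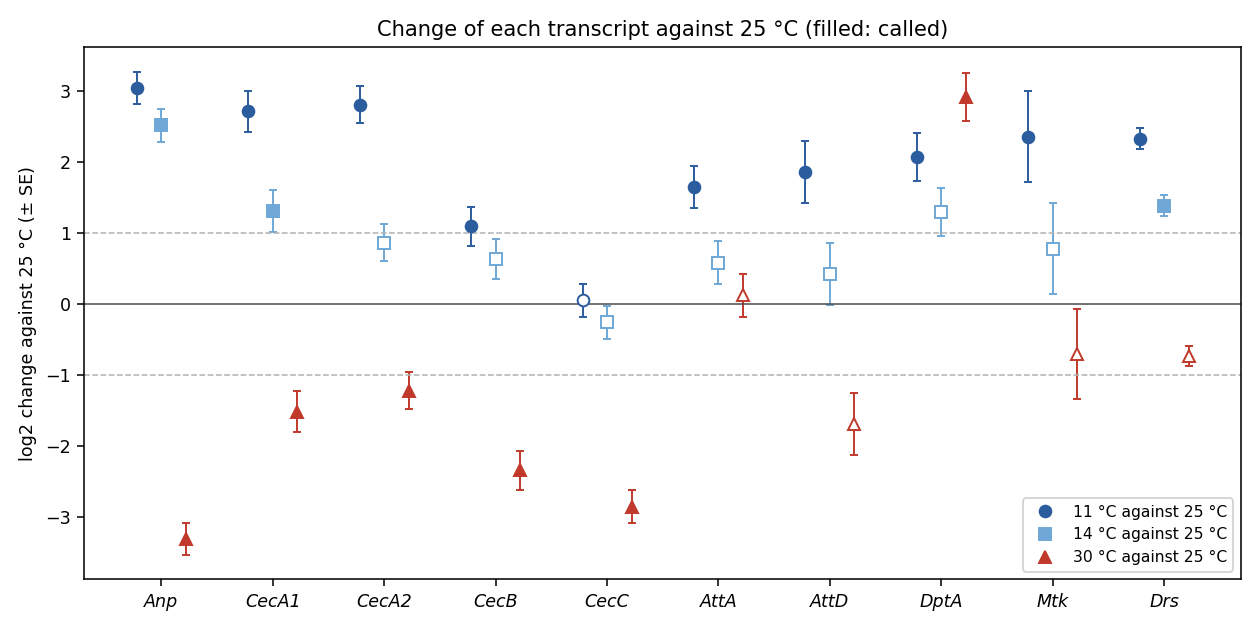
Log2 change against 25 °C with its standard error from the limma fit (y axis) for each of the 10 genes (x axis) at 11, 14 and 30 °C. Filled symbols were called at a fold of at least 2 and an adjusted p under 0.01, and dashed lines mark 2-fold. The triangles for 30 °C are below 0 for 8 genes and far above 0 for DptA, whose changes here use signals at 25 °C that were not well above background.

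Slide and replicate number bore on several of these values. Values were compared between slide 1, which held all 4 temperatures, and replicates 2 and 3, where low and high temperatures had a slide each. In both of these parts, 9 of the 10 genes were higher at low than at high temperature, and the other gene, DptA, had log2 changes of 0.69 on slide 1 and -0.01 among replicates 2 and 3. At 11 against 25 °C, 9 genes were higher in both parts, and CecC was 0.58 on slide 1 and -0.22 in the rest. At 14 against 25 °C, 8 genes were higher in both parts, while CecC gave 0.27 and -0.52 and Mtk -0.44 and 1.39. At 30 against 25 °C, 8 genes were lower and DptA was higher in both parts, and AttA gave -0.26 and 0.32. Among the 6 genes well above background on every array, the size differed most for CecA1 at 11 °C, with 3.76 on slide 1 and 2.19 among replicates 2 and 3, and then for AttD at 11 °C, with 2.80 and 1.39, while the gap for the dim gene Mtk at 14 °C was wider. With slide as a block in the fit, 8 genes were called higher at low against high temperature, without Mtk (1.94, adjusted p = 0.059). At 14 °C, 6 rather than 3 were called higher, as CecA2 (1.41), AttA (1.39) and DptA were added. The call of DptA again carries no weight, since it did not meet the filter at 25 °C. Over all features, this fit called 1157 of 15114 higher at low against high temperature and 637 at 14 °C. In this fit the offset between low and high temperatures came from slide 1 alone, since each other slide held only low or only high temperatures.

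Array 11C replicate 1 stood above its replicates for many of the genes. It was the highest of the 3 arrays at 11 °C for 8 of the 10, with log2 differences to the mean of replicates 2 and 3 of 1.74 for AttD, 1.70 for Mtk, 0.98 for DptA, 0.92 for AttA, 0.90 for CecA1, 0.86 for CecA2, 0.64 for CecB and 0.53 for CecC. Anp and Drs went the other way, with -0.45 and -0.42. The median difference was 0.881 for the 10 genes and -0.0264 for all features, whose 5th and 95th percentiles were -0.845 and 0.739. For the other AMP genes tested it was 0.662, for genes of the IMD pathway 0.0407 and for those of the Toll pathway 0.239. At 14 °C, replicate 1 was the highest array for 7 of the 10 genes, with a median difference of 0.513, and at 25 and 30 °C the medians were 0.054 and -0.127. Replicate 1 was on slide 1 at each temperature, and the part of slide in these differences was not tested. Leaving out 11C replicate 1 moved the change at 11 against 25 °C of Mtk to 1.80 (adjusted p = 0.0405) and that of CecB to 0.88 (adjusted p = 0.0313).

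**Figure D4:**
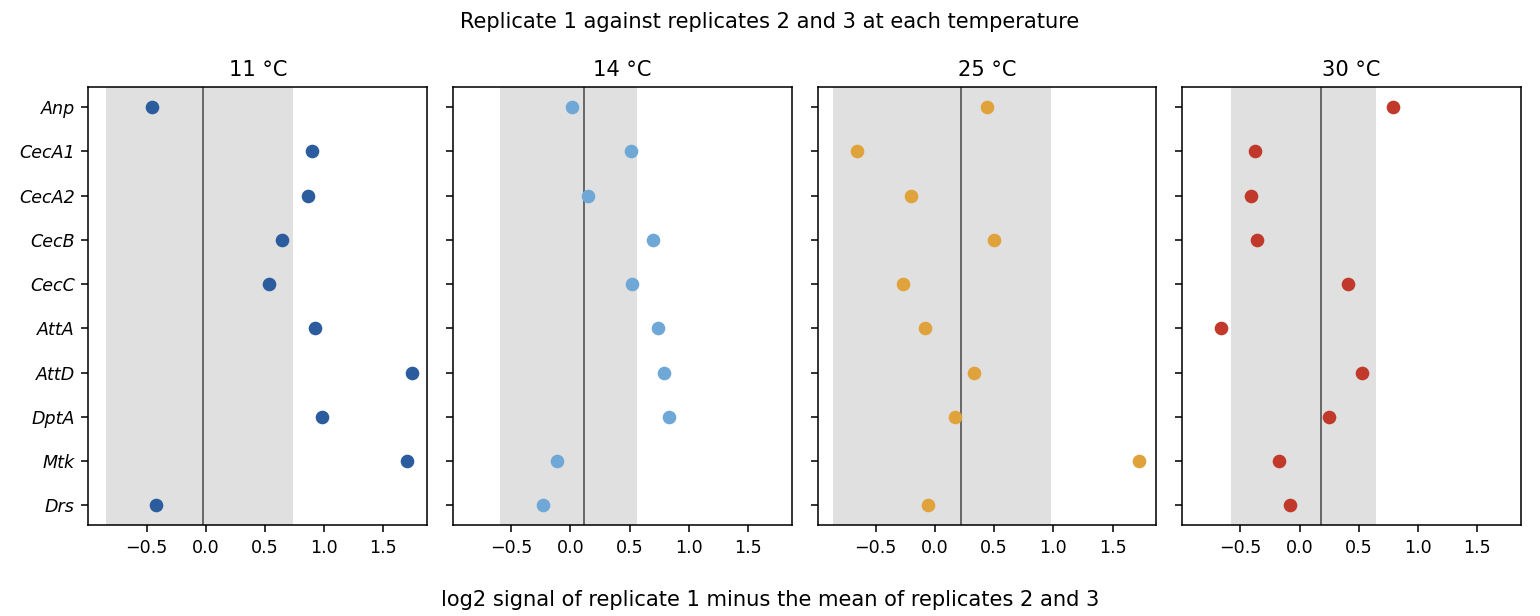
Log2 signal of replicate 1 minus the mean of replicates 2 and 3 (x axis) for the 10 genes (rows) at each temperature (panels). The grey band spans the 5th to the 95th percentile of all tested features and the vertical line is their median. At 11 °C, 6 of the 10 genes lie to the right of the band, and Anp and Drs lie left of 0.

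Over the 12 arrays the genes varied largely together. Pearson's r of log2 signal was above 0 for 38 of 45 pairs, with a median of 0.82 and a range of -0.62 (CecC and DptA) to 0.98 (CecA1 and CecA2). The points share libraries and temperatures, so these values only describe the common course. CecA1, well above background on all arrays, was used to look for features with the most similar pattern among all tested ones. The 5 closest were Vha68-3 (r = 0.984), CG14968 (0.981), CecA2 (0.980), GstD7 (0.978) and CG42268 (0.977). At low against high temperature their log2 changes were 3.01, 1.55, 2.45, 3.42 and 1.84.

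The surroundings of the Anp and cecropin cluster were examined with 5 coding genes on each side. Of these 10 flanking genes, 7 were tested. CG9747 (3.34, adjusted p = 1.4e-06) and CG9733 (2.92, adjusted p = 9.46e-08), both picked after their values were seen, were called higher at low against high temperature, and CG9733 also fell by 1.65 at 30 against 25 °C. Over all features 9.23% were called higher at low against high temperature and 3.39% lower at 30 against 25 °C. The directly adjacent RpS7, which encodes a ribosomal protein, changed by 0.051 (adjusted p = 0.585) at low against high temperature, and the others were not called in any comparison. AttA has Dro and AttB as its neighbours on chromosome arm 2R, and DptA lies beside DptB on the same arm.

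Of the 11 other AMP genes with a probe, 8 were tested, and Def, Drsl1 and Drsl3 were well above background on at most 1 of 12 arrays. At low against high temperature 5 of the 8 were called higher, against 9.23% of all features. AttC and Dro, among the 5, passed the filter only through temperatures at which they were high, so their calls carry no weight. None was called lower, against 11.4% (0 at an unadjusted p under 0.05), and the median of the 8 was 1.38. Among them, Drsl2, a homologue of Drs, changed by 2.40 ± 0.155 (SE, adjusted p = 2.93e-07), and had 710, 481 and 416 units at 11 °C, 141, 126 and 137.5 units at 14 °C, 39.55, 53.2 and 64.8 units at 25 °C and 43.7, 55.15 and 48.5 units at 30 °C. Its arrays at 25 and 30 °C overlapped, unlike those of Drs. AttC, well above background on 2, 3, 0 and 0 arrays at 11, 14, 25 and 30 °C, was at least 1.48-fold higher at low than at high temperature against the floor (adjusted p = 0.000469 in the fit). Drsl5 changed by 1.70 ± 0.18 and was also lower at 30 than at 25 °C (-1.31, adjusted p = 0.00388). The neighbours of AttA, named here for their position after their values were seen, were AttB with 1.61 ± 0.36 (adjusted p = 0.00253) and Dro. Dro was among the 5 called (adjusted p = 0.000349) but was well above background on only 2 arrays, both at 11 °C, and no fold is given since its mean signal at low temperature was below the floor of the high arrays. Drsl4 and Drsl6 were well above background on all 12 arrays and changed by -0.19 (adjusted p = 0.365) and -0.018 (adjusted p = 0.923).

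DptB, the other diptericin gene, shared the course of DptA and is named for it after its values were seen. It had 44.8, 69.3 and 56.3 units at 11 °C, 30.8, 38.7 and 41.7 units at 14 °C, 22.8, 21.3 and 26.2 units at 25 °C and 98.25, 103 and 114 units at 30 °C, and was well above background on all 12 arrays. The arrays at 25 °C were the lowest and those at 30 °C the highest, with no overlap between any 2 temperatures. DptB rose by 2.17 on the log2 scale at 30 °C (adjusted p = 1.52e-05) and by 1.26 at 11 °C (adjusted p = 0.000158) against 25 °C, and its change at low against high temperature was -0.13 (adjusted p = 0.396).

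**Figure D5:**
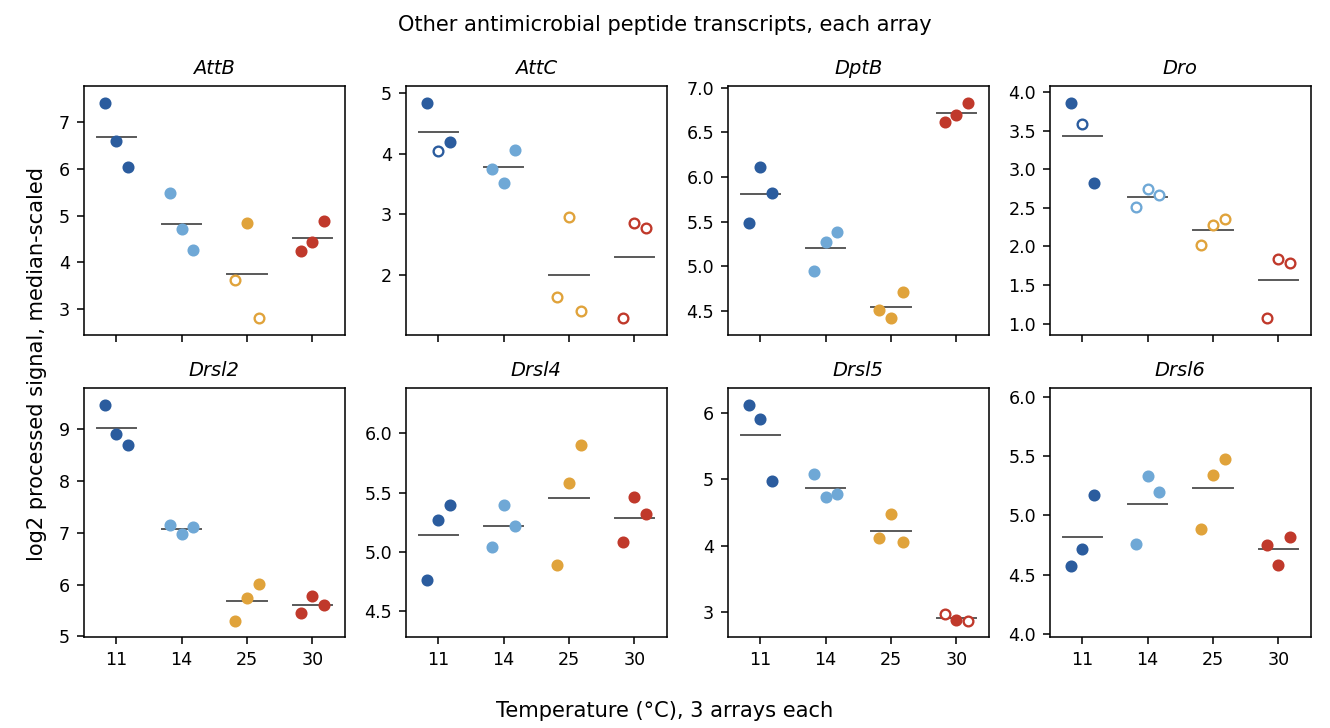
Log2 processed signal after median scaling (y axis, own range in each panel) of the 8 other antimicrobial peptide genes that were tested, at 11, 14, 25 and 30 °C (x axis). Each circle is an array, with replicates 1 to 3 from left to right, bars are means, and open circles mark arrays that were not well above background. Drsl2 and Drsl5 are highest at 11 °C, DptB has its minimum at 25 °C and its maximum at 30 °C, and Drsl4 and Drsl6 vary little.

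Genes upstream and other genes that respond to immune stimuli were taken from fixed lists. Of 28 genes of the IMD pathway, all tested, 3 were called higher and 1 lower at low against high temperature (12 and 5 at an unadjusted p under 0.05), with a median of 0.198. The 3 of 28 higher stand beside 9.23% of all features, and the 1 lower beside 11.4%. The largest increases belonged to pirk (2.18 ± 0.25 SE, adjusted p = 2.3e-05), which encodes an inhibitor of PGRP-LC, and PGRP-LB (2.17 ± 0.12, adjusted p = 9.96e-08), which encodes an amidase that degrades peptidoglycan and so dampens the pathway. The mean signal of pirk was 11160, 7805, 3186 and 1326 units at 11, 14, 25 and 30 °C. PGRP-LB was dim, with means over all its probes of 22.1, 16.3, 12.6 and 5.11 units, and the fit used only probes that passed the filter. The receptor gene PGRP-LC changed by -0.12 (adjusted p = 0.471), the adaptor gene imd by 0.041 (adjusted p = 0.787) and Rel by 0.17 (adjusted p = 0.154).

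Of 21 Toll pathway genes with a probe, 19 were tested, with a median of -0.0518 at low against high temperature. Of the 19, 2 were called higher and 2 lower (7 and 7 at an unadjusted p under 0.05). The counts called stand beside 9.23% and 11.4% of all features and are close to those shares. SPE, the protease that cleaves Spätzle, changed by 1.65 ± 0.26 (adjusted p = 0.000243) and was well above background on all arrays at 11, 14 and 30 °C and on 0 of 3 at 25 °C. The ligand gene spz (-0.52, adjusted p = 0.000674), the inhibitor gene cact (0.63, adjusted p = 0.000595) and the factor gene Dif (-0.40, adjusted p = 0.00332) passed the threshold on p but not that on fold. For Tl the change was -0.10 (adjusted p = 0.421) and for dl it was 0.058 (adjusted p = 0.694).

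Effectors of other kinds that immune or stress signals induce were called in both directions. Of 25 such genes with a probe, 10 were tested, with a median of 0.485 at low against high temperature. Of these, 4 were called higher and 3 lower (6 and 3 at an unadjusted p under 0.05). Over all features 9.23% were called higher and 11.4% lower. LysD, among the 3 lower, was well above background only at 30 °C. It passed the filter through the temperature at which it was high, so its call carries no weight. TotM, a Turandot gene of the humoral stress response, changed by 3.36 ± 0.26 (adjusted p = 9.8e-07), with mean signals of 231, 131, 31.4 and 9.11 units at 11, 14, 25 and 30 °C and no array well above background at 30 °C. Tep1 and Tep2, which encode thioester-containing proteins that bind microbes, changed by 1.99 ± 0.10 and 1.97 ± 0.13. Bomanins are short peptides needed for defence downstream of Toll, and the log2 changes of those called were 1.91 ± 0.49 for BomT3 (adjusted p = 0.00581), -2.09 ± 0.12 for BomBc1 (adjusted p = 1.11e-07) and -1.73 ± 0.33 for BomT2 (adjusted p = 0.000847).

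Hemocyte markers moved with temperature beside the AMP genes. Of 12 markers 11 were tested. At low against high temperature 0 were called higher and 3 lower (0 and 9 at an unadjusted p under 0.05). Over all features 9.23% were called higher and 11.4% lower, and the share at the unadjusted p was not counted. At 30 against 25 °C, 5 were called higher and 0 lower, against 4.17% and 3.39% of all features. NimC1, counted among the 3 and the 5, was well above background only at 30 °C. It passed the filter through the temperature at which it was high, so its calls carry no weight. The mean log2 signal over the 11 markers was between 7.31 and 7.88 on the arrays at 11 °C, between 7.33 and 7.88 at 14 °C, between 7.89 and 8.20 at 25 °C and between 8.82 and 9.10 at 30 °C. Fat body, the main source of AMP transcripts in flies, was represented by 10 markers, of which 4 were tested. At low against high temperature 0 of the 4 were called in either direction, against 9.23% higher and 11.4% lower of all features. At an unadjusted p under 0.05, 2 were higher and 0 lower. Their mean log2 signal was between 4.76 and 5.11 at 11 °C, between 4.50 and 4.62 at 14 °C, between 4.61 and 5.75 at 25 °C and between 3.84 and 4.34 at 30 °C, and Lsp1alpha and Lsp1beta were well above background on no array. The part of these markers in the changes of the AMP genes was not tested.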

How the data were processed

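The 12 single-colour arrays were quantified by the authors with Agilent Feature Extraction 10.7.3.1, per the file headers, and the deposited intensity values are background-subtracted processed signals on a linear scale. A deposited log2 table equalled these signals after a shift per array (at least 99.9% of 31676 probes within 0.01) and served as an alternative. For dim spots the software puts in small positive surrogates, so folds of dim genes are uncertain.

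Controls and outlier-flagged spots were dropped. The log2 signals were averaged per probe, each array was scaled on its median to the arrays at 25 °C as in the methods of the study, and probes were kept with at least 50% of their spots well above background in 2 or more of the 3 replicates at some temperature and a value on at least 10 arrays. Of 32162 gene probes, 19488 (60.6%) were named through a RefSeq table (Release 6 plus ISO1 MT, used for names and neighbours only), and probes of a gene were averaged. Changes were tested in R 4.3.3 with limma 3.58.1 (lmFit and eBayes over all 12 arrays, 1 mean for each temperature), with Benjamini-Hochberg adjustment over all 15114 features, and called at 2-fold and an adjusted p under 0.01. Unless stated otherwise, every adjusted p is from this fit. Its script was tested on simulated data.

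The AMP genes and the lists were chosen with earlier results of these data known. All 10 members were named, and of 65 tested list genes the 12 with the largest change at low against high temperature among those called, plus Rel, Dif, dl, imd, PGRP-LC, Tl, spz and cact. Of the list names, Pellino and nos were not matched. Replicate numbers were not taken as pairs in the main fit, since the correlation of same-numbered deviations was under 0.1 for at least 1 of 18 pairs (lowest 0.0884). The median was 0.251 for same-numbered pairs and -0.228 for the others. Since deviations were taken from the mean of each temperature, these medians are not independent of each other. Pairs of replicate 1, all on slide 1, lay between 0.303 and 0.573. Among replicates 2 and 3, same-numbered pairs lay between 0.0884 and 0.323 and differently numbered pairs between 0.0963 and 0.323. The shared part was thus that of replicate 1, not of number in general. Replicate was also run as a block.

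Alternatives were scaling on the 75th percentile or spike-in controls, quantile normalization, normexp, the deposited log2 table, other filters on dim probes, the brightest probe per gene, slide or replicate as a block, fewer arrays in the fit and leaving out each array. Chosen after the data had been seen were a floor for dim signals and the use of the median foreground signal, with flagged local backgrounds replaced, in normexp.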

Additional observations from a re-analysis of the deposited data

How the results depend on the processing

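The count of the 10 AMP genes called higher at low against high temperature was 9 and lay between 8 and 9 when single arrays were left out. The counts of this section include calls that carry no weight. These are the calls of Mtk here and at 11 °C, of DptA against 25 °C, and of Anp and CecB at 30 °C. With only probes well above background on all 12 arrays the count was 5, beside 764 of 11729 features, where the main fit called 1395 of 15114. Anp, CecB, DptA and Mtk have no such probe, and AttA was not called (0.37, adjusted p = 0.0516). At 11 against 25 °C the count of 9 higher genes was 5 with normexp and 4 with that filter, and between 6 and 9 without single arrays. With that filter, genes without such a probe could not be called, and AttA was not called (0.40, adjusted p = 0.146). Over all features the higher calls were 1320 of 15114 in the main fit, 710 with normexp and 738 of 11729 with that filter. At 14 against 25 °C the count of 3 was 6 with slide as a block and between 2 and 4 without single arrays. Over all features 805 were called higher in the main fit and 637 with slide as a block. The slide block took the offset between low and high temperatures from slide 1 alone. At 30 against 25 °C, the count of 5 lower genes was 3 when arrays were scaled to spike-in controls, 3 when scaled to the 75th percentile, 2 with normexp and between 3 and 6 without single arrays. Over all features the lower calls were 512 in the main fit, 285 with spike-in controls, 440 with the 75th percentile and 151 with normexp. The 1 higher gene became 0 with normexp and 0 with the stricter filter, and stayed 1 without any single array. With the replicate block, the paired alternative, the counts were 9, 9, 3 and 5, beside 1401, 1352, 837 and 568 of all features. The calls of CecA1 at 14 °C and CecA2 at 30 °C were then lost and those of DptA at 14 °C and AttD at 30 °C were gained. In the unpaired data, 6 of 12 arrays correlated best with an array of their own number.

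Signs turned only for changes that were not called. CecC at 14 against 25 °C became 0.17 with spike-in controls, 0.031 with normexp and 0.046 with slide as a block, and at 11 against 25 °C it lay between -0.12 (without 11C replicate 1) and 0.22 (without 11C replicate 2), and was -0.040 without 25C replicate 1. DptA at low against high temperature became -0.12 with normexp and -0.38 with the floor, and Mtk at 14 against 25 °C became -0.21 with the floor. AttA at 30 against 25 °C became -0.015 with normexp, -0.28 with the stricter filter, -0.28 with its brightest probe, -0.31 with the floor and lay between -0.062 (without 30C replicate 2) and 0.35 (without 30C replicate 1). The cause was not tested. Among the values of single genes under the alternatives, 829 kept their direction and call, 78 lost the call, 14 gained it and 13 changed sign. Signal over background limits Mtk, DptA and, at 30 °C, Anp and CecB.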
